A study of Homo sapiens with 34 samples.

Results

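The 10 genes described here encode death receptors and the proteins that carry out or restrain apoptosis, and were chosen by name out of 19970 protein-coding genes on chromosomes 1 to 22 and X. They are the TRAIL receptor genes TNFRSF10A, TNFRSF10B, TNFRSF10C and TNFRSF10D, the receptor gene FAS, the initiator caspase genes CASP8 and CASP10, and BCL2, BCL2L11 and APAF1. Start sites and gene bodies were taken from the GENCODE annotation of hg38, and each gene was read in 30 peak lists, one for each library. A promoter peak is a peak that touches the 1 kb either side of any annotated start site of the gene.

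The study used KELLY cells, a MYCN-amplified human neuroblastoma line, engineered with a hairpin RNA to the co-repressor gene RUNX1T1 that doxycycline switches on. Cells were treated for 72 h with the solvent DMSO or with Doxycycline, and both groups carried the hairpin construct. Chromatin was immunoprecipitated for H3K4me1, H3K4me2, H3K4me3, H3K27ac and H3K27me3, with 3 libraries for each mark and treatment, and each library had its own peak list. All groups came from 1 cell line, and nothing in the labels says whether the replicates were separate cultures, so the spread between libraries may be partly technical.

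Ligands such as TRAIL and FAS ligand bind death receptors on the cell surface, and the bound receptors recruit the adaptor FADD and the initiator caspases 8 and 10. In the mitochondrial branch, BH3-only proteins such as BIM, the product of BCL2L11, oppose BCL2, and released cytochrome c assembles with APAF1 into the apoptosome. Neuroblastomas with amplified MYCN often lack caspase 8, and silencing of CASP8 and of TRAIL receptor genes is known from these tumors. H3K4me3 marks promoters, and H3K27ac marks promoters and enhancers in use. H3K4me1 and H3K4me2 also mark enhancers, and H3K27me3 marks chromatin held by Polycomb complexes.

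The labelled cell type was checked against its markers. The sympathetic neuroblast genes PHOX2A, HAND2, GATA3, ISL1, TH and DBH had promoter H3K27ac and H3K4me3 in all 6 libraries. Of 11 genes of immune, endothelial, epithelial and fibroblast cells, 3 (EPCAM, PDGFRB and THY1) had promoter H3K27ac in all 6 libraries and 6 had it in none, PTPRC and CD3E among them. RUNX1T1 itself carried promoter H3K4me1, H3K4me2, H3K4me3 and H3K27ac in 3 of 3 libraries of both treatments and no H3K27me3. A hairpin acts on the transcript, so these marks do not check the knockdown. The depth at which peaks were called, the smaller of the ChIP and input read totals, was 71.9 to 81.1 M reads for DMSO libraries. For doxycycline libraries it lay between 57.0 and 63.4 M. Inputs held 74.5 or 81.5 M reads for DMSO and 57.0 or 63.4 M for doxycycline. ChIP read totals overlapped between treatments except for H3K27me3. The ranges of calling depth are separate, so depth of calling and treatment cannot be told apart. The H3K27me3 libraries were of 2 kinds, with a fragment length estimated at 256 to 280 bp in 3 libraries (DMSO replicate 1 and doxycycline replicates 1 and 2) and at 105 to 112 bp in the other 3.

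The promoters of the 10 genes fell into separate states, and none moved from peaks in every library of one treatment to peaks in none of the other. H3K4me3 was present in all 6 libraries at 8 of the 10 genes, against 72.6% of all 19970 genes in DMSO and 72.3% in doxycycline. H3K4me2 was present at the same 8 genes in all 6 libraries, against 72.3% of all genes in DMSO and 73.8% in doxycycline. H3K4me1 was found in all 3 libraries at 7 genes in DMSO and 6 in doxycycline, H3K27ac at 6 and 5, and H3K27me3 at 2 and 4. Over all genes the corresponding shares were 66.3% and 66.1% for H3K4me1, 65.8% and 65.2% for H3K27ac, and 20.9% and 23.2% for H3K27me3.

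The group thus held both ends of the range of promoter states. TNFRSF10B, BCL2 and APAF1 had H3K4me3 and H3K27ac in all 6 libraries and H3K27me3 in none, a state shared by 50.9% of all genes. BCL2L11 had all of H3K4me3, H3K27ac and H3K27me3 in all 6 libraries (3.58% of genes), and TNFRSF10A had H3K4me3 and H3K27me3 in all 6 and H3K27ac in none (4.83%). CASP10 and TNFRSF10D had no promoter peak of H3K4me2, H3K4me3 or H3K27ac in any library (18.1%). TNFRSF10D, which encodes a decoy receptor with a truncated death domain, had no promoter peak of any mark in any of the 30 lists, as was the case for 5.6% of all genes.

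**Figure D1:**
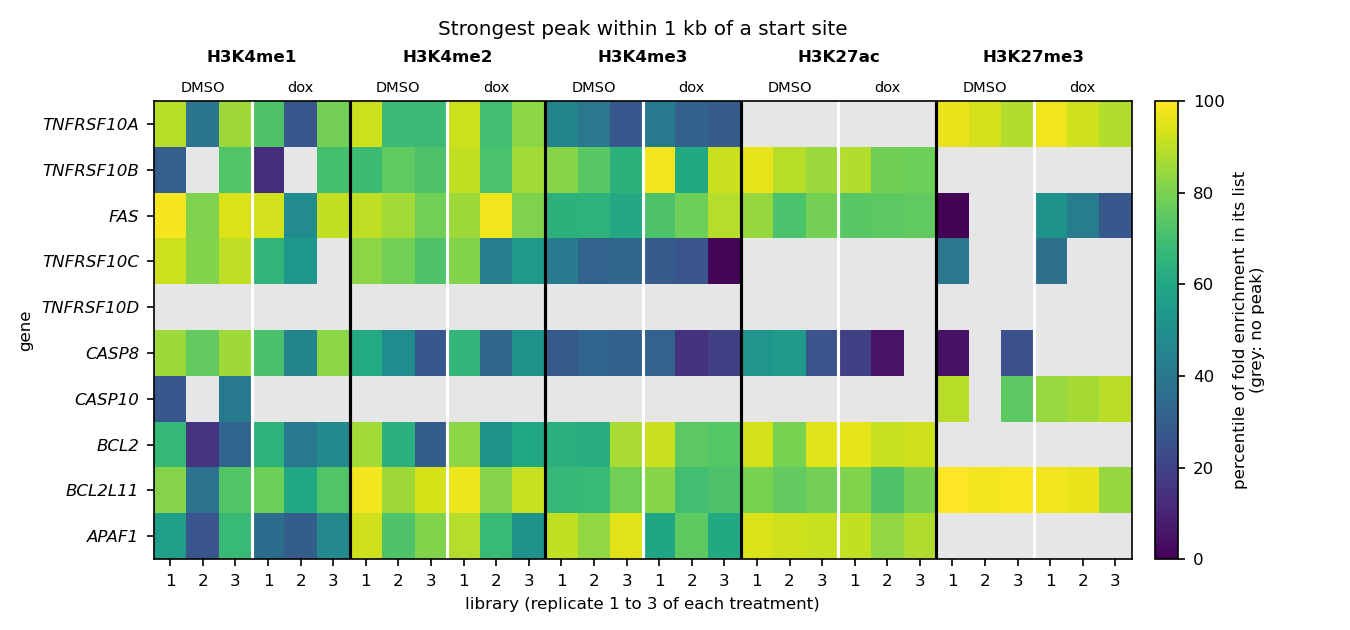
Rank of the strongest promoter peak of each gene in each of the 30 libraries, as the percentile of fold enrichment within its own list (color, 0 to 100); rows are genes, columns are replicates 1 to 3 of DMSO and of doxycycline (dox) for each mark, and grey means no promoter peak. TNFRSF10D is grey in every column, and CASP10 is grey for H3K4me2, H3K4me3 and H3K27ac.

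A gene was said to separate the treatments when its promoter had a peak in 3 of 3 libraries of one and 0 of 3 of the other. No member did so for any mark. Among genes with a promoter peak in at least 1 library, the share that separated in either direction was 0.383% for H3K4me1, 0.0374% for H3K4me2, 0.174% for H3K4me3, 0.462% for H3K27ac and 0.535% for H3K27me3. The closest members were CASP10, whose H3K4me1 was found in 2 DMSO libraries and no doxycycline library, and FAS, whose H3K27me3 was found in 1 DMSO library and in every doxycycline library. CASP10 separated when DMSO replicate 2 was left out, as did CASP8 for H3K27me3, and FAS separated for H3K27me3 when DMSO replicate 1 was left out. The CASP8 H3K27me3 peaks lay over exon 8, from 23.6 to 24.5 kb, at -log10 q of 1.28 and 1.55. That site holds the repeated sequence described below.

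TNFRSF10A and TNFRSF10B encode the TRAIL receptors DR4 and DR5, which carry a full death domain and signal to caspases. The genes lie on chromosome 8, TNFRSF10A from 23190452 to 23225102 and TNFRSF10B from 23020133 to 23069031, both on the minus strand (hg38). TNFRSF10B carried H3K27ac and no H3K27me3, and TNFRSF10A the reverse.

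At TNFRSF10B, the strongest H3K4me3 peak lay at percentiles 82.4, 74.5 and 64.4 of its lists in DMSO and 98.3, 60.6 and 91.8 in doxycycline. The fold enrichment, the ratio of ChIP signal to the local background level, was between 18.95 and 55.92. H3K27ac was at percentiles 96.3, 89.1 and 85.0 in DMSO and 88.3, 78.2 and 77.8 in doxycycline, so the highest doxycycline library was below DMSO replicates 1 and 2 but above replicate 3. No H3K27me3 peak lay anywhere over the gene.

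At TNFRSF10A, the H3K4me3 peak was weaker, at percentiles 45.2, 39.8 and 27.1 in DMSO and 40.7, 31.2 and 29.1 in doxycycline. It spanned 0.77 to 1.24 kb over exon 1. H3K27me3 covered the same start site in all 6 libraries and ranked high, at percentiles 97.0, 93.4 and 88.6 in DMSO and 98.0, 92.8 and 88.5 in doxycycline. The treatments overlapped for both marks. The H3K27me3 peak was 16.5, 3.4 and 2.34 kb wide in DMSO and 14.0, 13.2 and 2.9 kb in doxycycline, and the 3 wide ones were the 3 libraries with a long fragment estimate.

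TNFRSF10C and TNFRSF10D encode decoy receptors that bind TRAIL without passing on a full death signal. Both lie on the same chromosome as the other receptors, TNFRSF10C from 23102921 to 23117445 and TNFRSF10D from 23135588 to 23164027. TNFRSF10C had H3K4me3 and H3K4me2 in all 6 libraries without H3K27ac in any, together with TNFRSF10A, a state of 5.14% of genes. Its H3K4me3 ranked at percentiles 41.6, 31.8 and 33.2 in DMSO and 28.9, 26.4 and 1.3 in doxycycline. All 3 doxycycline libraries were below all 3 DMSO libraries, as for 9.19% of genes with promoter H3K4me3 in all 6 libraries, and doxycycline replicate 3 held a peak of 0.25 kb only. The difference was -16.7 percentile points (SE 6.8) with a limma adjusted p of 0.315, and -7.87 without doxycycline replicate 3.

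TNFRSF10D carried its marks inside the gene. An H3K27ac region of 1.7 kb lay from 13.4 to 15.1 kb after the canonical start, in intron 2, in 3 of 3 libraries of both treatments, and its fold enrichment was between 2.22 and 3.18. H3K4me1 covered the same place in 3 DMSO and 2 doxycycline libraries, and another H3K4me1 region from 2.1 to 3.4 kb was found in all 6. H3K27ac covered 3.45, 4.19 and 5.27% of the gene body in DMSO and 3.4, 3.35 and 1.71% in doxycycline. Every doxycycline value was below every DMSO value, with a mean of 4.3 ± 0.918% in DMSO and 2.82 ± 0.959% in doxycycline (SD, n = 3). The same direction without overlap was seen for 10.3% of genes with H3K27ac on the body. With lists cut to equal length the difference turned to 0.28 percentage points higher in doxycycline, and it was -0.93 without doxycycline replicate 3, and the treatments overlapped at q 0.001 or less.

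FAS encodes the receptor of FAS ligand. Its annotated body runs on chromosome 10 from 88953813 to 89029605 on the plus strand, with 41 start sites, of which the canonical one is at 88990798 and others lie far upstream beside ACTA2, a gene of the opposite strand with a start site 44 bp from one of FAS. The window at the canonical start held 14 CpG dinucleotides, the median of 35116 RefSeq promoter windows of the same length (250 bases before to 50 after the start). It is shown because H3K4me3 peaks touched it in every library, and H3K27ac and H3K27me3 peaks in some (RefSeq, GRCh38.p14, chr10:88990664-88990963, plus strand, CG in capitals).
FAS canonical start: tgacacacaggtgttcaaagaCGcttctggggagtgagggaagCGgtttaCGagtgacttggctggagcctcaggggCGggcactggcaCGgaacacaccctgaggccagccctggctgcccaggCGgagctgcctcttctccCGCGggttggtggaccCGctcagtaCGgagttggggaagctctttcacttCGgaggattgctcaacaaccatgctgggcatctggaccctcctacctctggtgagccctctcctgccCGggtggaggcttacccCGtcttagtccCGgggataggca

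At this start, H3K4me3 peaks spanned 1.57 to 1.89 kb in all 6 libraries, at percentiles 64.1, 64.6 and 60.3 in DMSO and 72.0, 77.8 and 88.8 in doxycycline. Every doxycycline percentile was above every DMSO percentile, as for 7.63% of genes with the mark in all 6 libraries. The difference was 16.5 points (SE 8.3), and limma gave an adjusted p of 0.413. H3K27ac at the canonical start was weak, with a fold enrichment of 2.02 to 2.56 in 2 DMSO and 3 doxycycline libraries, whereas the FAS promoter peak that ranked at 71.7 to 84.1 lay from -40.5 to -37.0 kb, at the far start sites next to ACTA2.

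H3K27me3 touched the canonical start of FAS with short peaks. The widest promoter peak was 0.41, 0 and 0 kb in DMSO and 0.98, 0.7 and 0.68 kb in doxycycline, so the treatments did not overlap. Of all genes with a promoter H3K27me3 peak, 1.31% had a wider peak in all 3 doxycycline libraries. The mean width was higher in doxycycline for 82.9% of these genes, with a median difference of 1497 bp. The FAS difference of 0.65 kb was below that median. The covered share of the gene body was likewise higher, 0.335 ± 0.292% in DMSO and 1.04 ± 0.228% in doxycycline (SD, n = 3), as for 1.11% of genes. Mean cover was higher in doxycycline for 63.4% of genes, with a median difference of 0.785 percentage points against 0.702 for FAS. The FAS peaks were near the calling limit, with -log10 q from 1.37 to 2.38, and none remained at q 0.001 or less. With lists cut to equal length the widths overlapped, at a difference of 0.42 kb against 0.65 kb. Within the long kind of fragment length, body cover was 1.3 and 0.92% in doxycycline against 0.54% in DMSO. For the short kind it was 0.89% against 0 and 0.47%. The 0.47% came from a peak at 9.05 to 9.4 kb in intron 1, away from the start. Each kind had few libraries per treatment, and the share of all genes with this pattern is not given.

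For H3K4me1, the widest FAS promoter peak was 4.42, 4.47 and 4.32 kb in DMSO and 4.24, 2.78 and 4.29 kb in doxycycline, lower in every doxycycline library, as for 5.47% of genes. The difference of -0.634 kb became -0.14 kb without doxycycline replicate 2. In 5 libraries that peak was the far upstream one, from -42.0 to -37.5 kb, and doxycycline replicate 2 had no peak there. At the canonical start alone the difference was 0.62 kb higher in doxycycline.

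CASP8 encodes the initiator caspase that death receptors activate. Its annotated body runs on chromosome 2 from 201233443 to 201361836 on the plus strand, past the end of the canonical transcript, which has 9 exons and begins at 201260536. The window within 1 kb of that canonical start carried no peak of any mark in any list. H3K4me1 and H3K4me2 lay upstream, close to a second RefSeq start 2.5 kb before the canonical one, and H3K4me3 lay elsewhere, from 23.6 to 24.3 kb into the gene over exon 8, where a CASP8 transcript with no defined coding sequence begins. The windows at both start sites are shown because one had no mark and the other lay beside H3K4me1 and H3K4me2 (chr2:201260286-201260585 and chr2:201257785-201258084 from RefSeq, GRCh38.p14, plus strand, CG in capitals).
CASP8 canonical start: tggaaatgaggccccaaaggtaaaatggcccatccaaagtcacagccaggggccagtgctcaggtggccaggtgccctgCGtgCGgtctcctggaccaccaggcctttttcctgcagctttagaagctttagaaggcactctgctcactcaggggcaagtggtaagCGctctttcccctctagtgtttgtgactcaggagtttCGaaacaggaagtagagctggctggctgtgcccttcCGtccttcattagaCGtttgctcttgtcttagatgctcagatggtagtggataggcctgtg
CASP8 upstream start: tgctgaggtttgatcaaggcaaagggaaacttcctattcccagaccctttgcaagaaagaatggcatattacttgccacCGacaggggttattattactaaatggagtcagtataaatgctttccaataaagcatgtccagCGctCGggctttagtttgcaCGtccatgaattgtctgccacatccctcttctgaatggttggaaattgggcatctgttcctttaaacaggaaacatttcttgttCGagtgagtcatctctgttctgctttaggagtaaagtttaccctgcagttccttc

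The canonical and upstream windows held 6 and 5 CpG, and 33.7% and 29.6% of the RefSeq windows held fewer. When each of these, and 300 bases at the H3K4me3 peak in exon 8, was split into 10 pieces of 30 bases, every piece of the canonical and upstream windows was found once in hg38, whereas all 10 pieces of the H3K4me3 window were found more than once, 2 to 7436 times with a median of 570. Alignment had reported 1 place per read, with a mapping quality of 30 or more. Whether the reads of the H3K4me3 peak belong to this copy was not tested. CASP8 counts among the 8 genes with H3K4me3 in all 6 libraries only through this peak in repeated sequence. Its promoter H3K27ac peaks also reached this site in DMSO replicates 1 and 2 and doxycycline replicates 1 and 2. In DMSO replicate 3 the promoter H3K27ac peak lay at the upstream start instead.

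The strongest H3K4me3 promoter peak ranked at percentiles 28.5, 32.7 and 31.0 in DMSO and 31.9, 14.7 and 18.8 in doxycycline, with a fold enrichment of 4.66 to 8.28. It was the exon 8 peak in 5 libraries, and in doxycycline replicate 2 a peak of 0.32 kb near the upstream start ranked higher. The widest H3K4me3 promoter peak was 0.61, 0.66 and 0.63 kb in DMSO and 0.59, 0.53 and 0.47 kb in doxycycline. Each doxycycline width was below each DMSO width, at 0.63 ± 0.0262 and 0.533 ± 0.06 kb (SD, n = 3), as for 7.07% of genes with a promoter H3K4me3 peak. This was the repeated site, and no H3K4me3 width could be compared at the canonical start.

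At the upstream start, H3K4me2 ranked at percentiles 61.2, 48.5 and 27.7 in DMSO and 66.2, 33.3 and 51.0 in doxycycline, with widths of 0.29 to 0.83 kb. H3K4me1 there spanned -3.0 to -1.1 kb in 3 of 3 libraries of both treatments. H3K27ac was called at this start in 2 DMSO libraries and no doxycycline library, with a fold enrichment of 2.19 to 2.26. H3K4me1 covered 6.25, 4.49 and 4.31% of the CASP8 body in DMSO and 4.29, 2.82 and 4.2% in doxycycline, without overlap and by a narrow gap, as for 6.86% of genes in that direction. The difference of -1.25 percentage points was -0.63 without DMSO replicate 1 and -0.77 without doxycycline replicate 2, and the treatments overlapped at q 0.001 or less.

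**Figure D2:**
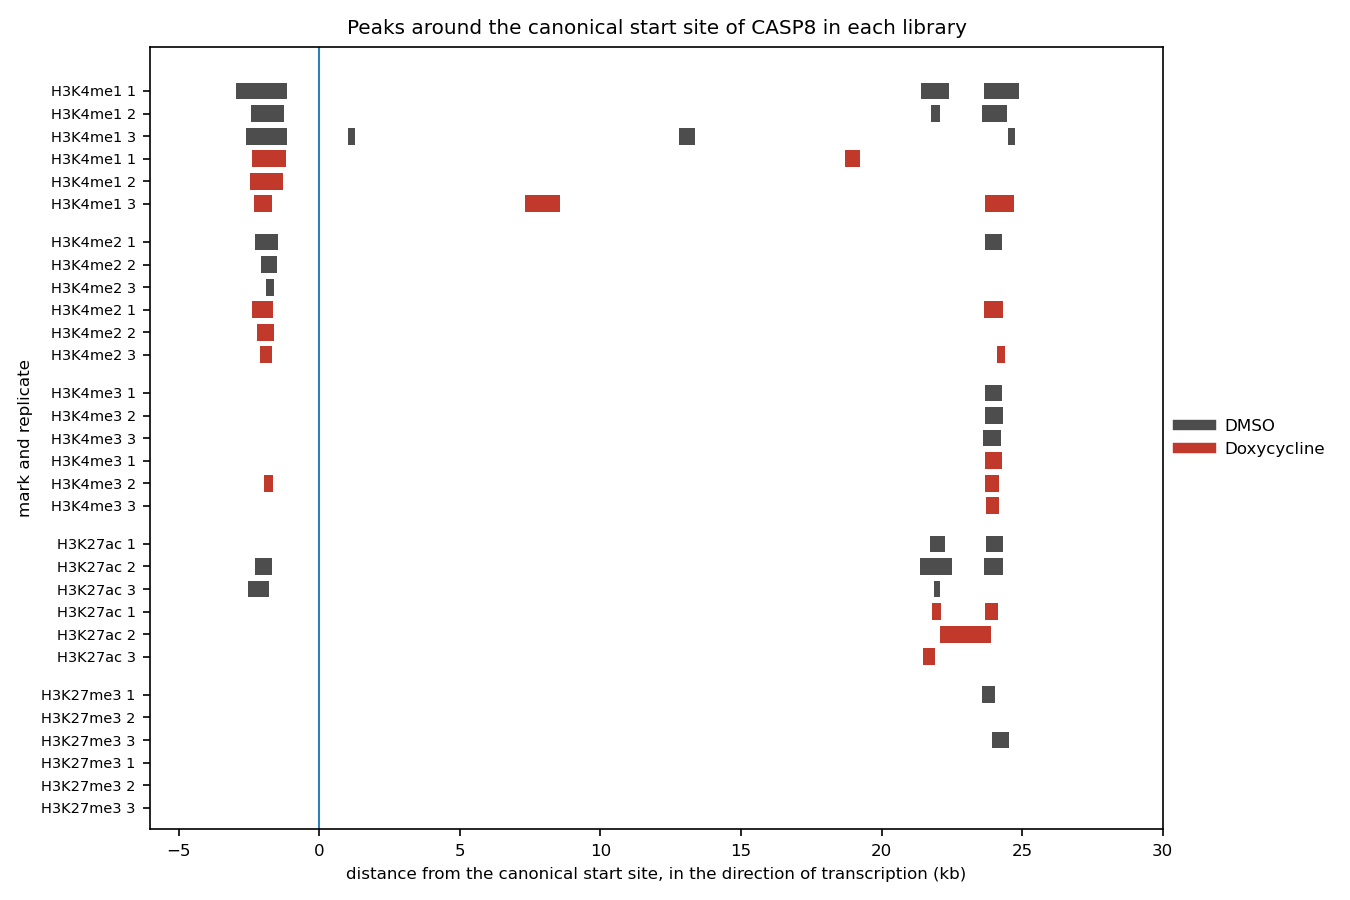
Peaks of the 5 marks around the canonical start of CASP8 in each library, by distance in kb from the canonical start (line at 0), with DMSO in grey and doxycycline in red and replicates 1 to 3 of each treatment in rows. H3K4me1 and H3K4me2 lie before the start in all 6 libraries of each mark, H3K4me3 lies from 23.6 to 24.3 kb in all 6, and no peak touches the 1 kb either side of the start.

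CASP10 encodes the other initiator caspase and lies before CASP8 on the same strand, on chromosome 2 from 201182872 to 201229428. It had no H3K4me3 or H3K27ac peak anywhere over its body. H3K27me3 touched its promoter in DMSO replicates 1 and 3 and in all 3 doxycycline libraries, at percentiles 89.4 and 74.7 in DMSO and 84.7, 86.6 and 89.6 in doxycycline. The widest promoter peak was 11.8, 0 and 3.33 kb in DMSO and 21.4, 12.5 and 0.8 kb in doxycycline, so the treatments overlapped, and the 3 widest were those of the long fragment kind. H3K4me1 covered 12.6, 6.51 and 10.9% of the body in DMSO. In doxycycline the first 2 libraries had 6.65 and 1.61% and the third had no H3K4me1 peak over the gene.

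BCL2 encodes the founding survival protein of its family, which holds back the mitochondrial branch. The gene runs on chromosome 18 from 63123346 to 63320128 on the minus strand, 196.8 kb with 3 exons in the canonical transcript. Its promoter window held 31 CpG, more than 79.3% of RefSeq windows. The promoter is shown together with 300 bases from the centre of an intronic region described below that had H3K27ac only in doxycycline libraries (chr18:63319720-63320019 from RefSeq, GRCh38.p14, and chr18:63162059-63162358 from hg38, both minus strand, CG in capitals).
BCL2 canonical start: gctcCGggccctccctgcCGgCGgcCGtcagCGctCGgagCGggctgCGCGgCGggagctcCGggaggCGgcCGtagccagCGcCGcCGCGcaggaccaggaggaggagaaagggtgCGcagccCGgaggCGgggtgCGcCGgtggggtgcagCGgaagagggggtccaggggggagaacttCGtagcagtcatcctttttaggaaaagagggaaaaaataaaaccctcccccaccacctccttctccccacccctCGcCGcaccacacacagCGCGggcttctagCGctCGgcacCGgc
BCL2 intron 2 region: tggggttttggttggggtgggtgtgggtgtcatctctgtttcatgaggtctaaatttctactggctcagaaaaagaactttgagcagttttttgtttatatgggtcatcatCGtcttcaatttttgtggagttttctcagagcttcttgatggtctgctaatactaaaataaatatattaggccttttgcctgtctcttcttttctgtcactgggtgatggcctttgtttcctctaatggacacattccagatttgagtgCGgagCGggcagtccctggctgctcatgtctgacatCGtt

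More of the BCL2 body carried H3K27ac after doxycycline. Peaks covered 7.0, 3.69 and 4.65% of the gene in DMSO and 18.1, 10.9 and 15.3% in doxycycline, and the lowest doxycycline library was above the highest DMSO library. The means were 5.12 ± 1.7% and 14.7 ± 3.64% (SD, n = 3), a ratio of 2.88. In length this was 13.8, 7.3 and 9.2 kb against 35.6, 21.4 and 30.1 kb, a mean gain of 19.0 kb that ranked 74 among 15184 genes with any H3K27ac over the body. A rank in kb also depends on gene length, and BCL2 is 196.8 kb long.

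Of genes with H3K27ac on the body, cover was higher in all 3 doxycycline libraries than in all 3 DMSO libraries for 5.66% and lower for 10.3%. The median difference over these genes was -0.054 percentage points. Over the 7 members with H3K27ac on the body the median was -0.303, with 1 higher and 6 lower. The doxycycline lists held fewer H3K27ac peaks (48171 to 60292) than the DMSO lists (55153 to 71603) and were called at lower depth. BCL2 remained without overlap at q 0.001 or less and with lists of equal length. Leaving out any 1 library cannot create an overlap, and the difference then ranged from 7.96 to 11.57 percentage points.

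Of 19 H3K27ac regions over BCL2, 4 were present in 3 of 3 DMSO libraries and 10 in 3 of 3 doxycycline libraries. The 4 DMSO regions were all among the 10, and lay at the canonical start and from 44.8 to 48.8, 139.0 to 143.5 and 167.8 to 172.5 kb into the gene. In 3 regions H3K27ac went from 0 of 3 to 3 of 3 libraries, at 135.3 to 137.7 and 156.7 to 158.5 kb in intron 2 and at 191.6 to 194.2 kb over exon 3. None was found in 3 of 3 DMSO and 0 of 3 doxycycline libraries. Regions over genes outside the group were not counted in this way, so how usual 3 of 19 is cannot be said. The strongest of the 3 was that from 156.7 to 158.5 kb, and it is the intronic sequence printed above. Its fold enrichment was 3.61 to 4.65, at -log10 q of 5.99 to 11.19. It touched the 1 kb around another annotated BCL2 start site, so it also counts as a promoter peak. Promoter H3K27ac peaks of BCL2 numbered 1 in each DMSO library and 3 in each doxycycline library. The other 2 of these regions were weaker, at -log10 q from 1.31 to 3.58.

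H3K4me1 was read at the same sites. The regions at 135.3 and 156.7 kb both overlapped H3K4me1 regions present in 3 of 3 libraries of both treatments, and the one at 191.6 kb overlapped H3K4me1 in 2 of 3 libraries of each. H3K4me1 cover of the whole gene was 11.2, 4.23 and 8.72% in DMSO and 15.2, 4.48 and 8.41% in doxycycline, and the treatments overlapped. No H3K27me3 peak was found over BCL2 in any library.

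**Figure D3:**
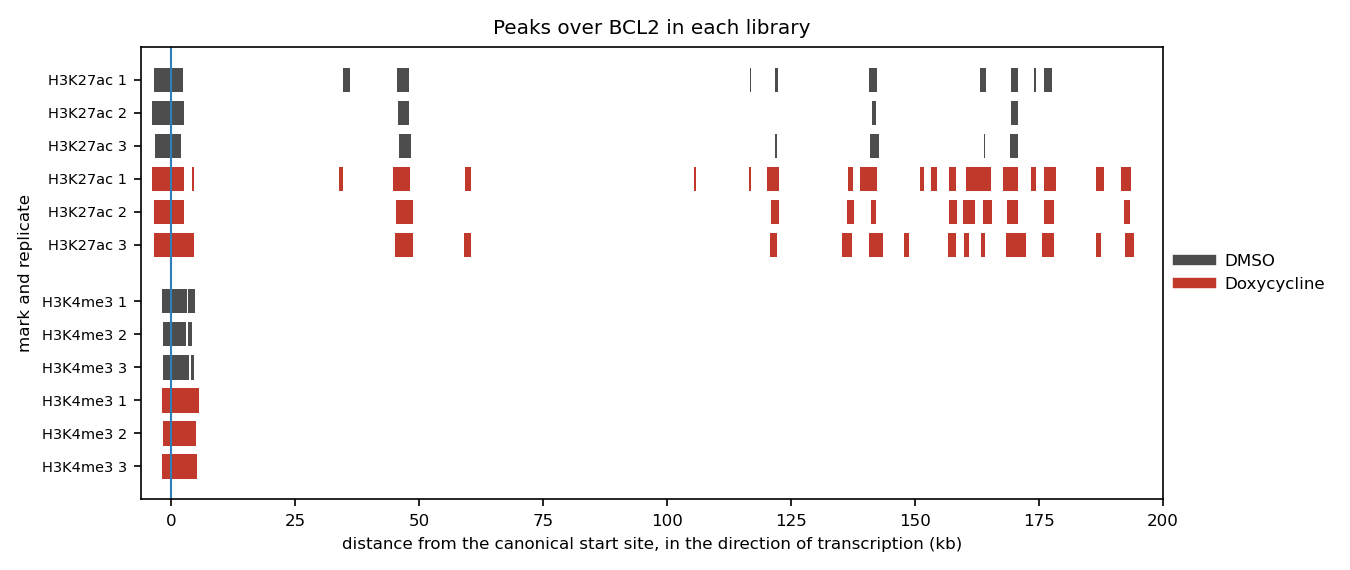
H3K27ac and H3K4me3 peaks over BCL2 in each library, by distance in kb from the canonical start (line at 0) in the direction of transcription, with DMSO in grey and doxycycline in red. The H3K27ac regions from 135.3 to 137.7, 156.7 to 158.5 and 191.6 to 194.2 kb appear in all 3 doxycycline rows and in no DMSO row.

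The H3K4me3 promoter peak of BCL2 was also wider in doxycycline, at 7.51, 6.66 and 6.98 kb against 5.02, 4.61 and 4.6 kb in DMSO. The means were 7.05 ± 0.429 and 4.74 ± 0.241 kb (SD, n = 3), a ratio of 1.49 and a difference of 2.31 kb that ranked 20 among 14920 genes. A wider peak in all 3 doxycycline libraries was seen for 3.24% of genes with promoter H3K4me3, and a narrower one for 7.07%. Each DMSO list held separate short peaks after the main one, between 3.06 and 4.79 kb, and each doxycycline list held 1 continuous peak that ended at 5.68, 4.97 and 5.25 kb. The covered share of the body, which counts the separate peaks too, was 2.28 ± 0.279% in DMSO and 2.88 ± 0.181% in doxycycline, without overlap, as for 3.53% of genes.

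The height of the BCL2 promoter peaks did not separate the treatments. H3K4me3 ranked at percentiles 63.4, 62.3 and 87.2 in DMSO and 91.9, 74.8 and 73.8 in doxycycline, and H3K27ac at 93.4, 80.0 and 95.0 against 96.4, 91.5 and 92.9. The limma differences were 9.2 (SE 9.6, adjusted p = 0.734) and 4.1 points (SE 3.5, adjusted p = 0.66).

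**Figure D4:**
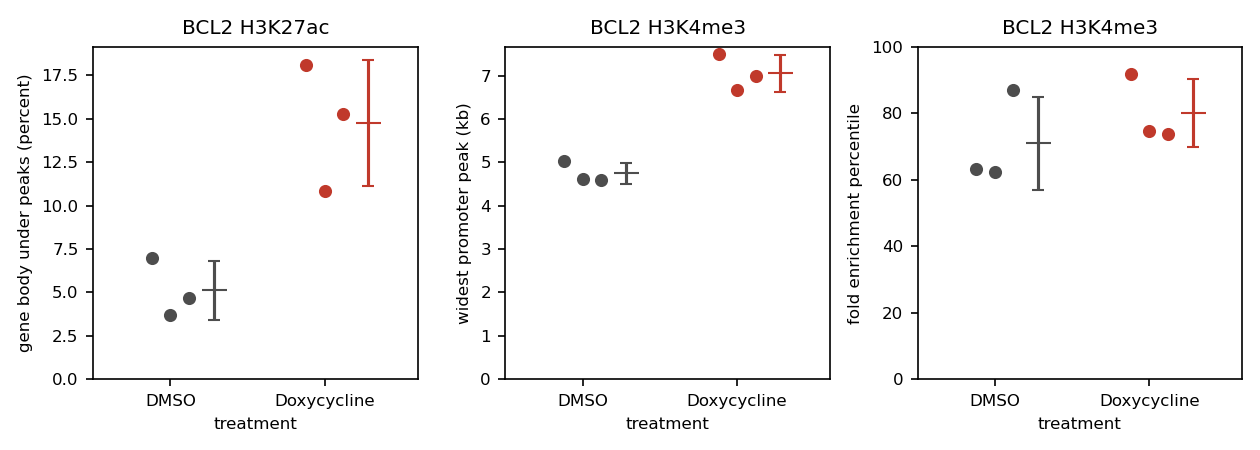
BCL2 in each library (points, 3 DMSO in grey and 3 doxycycline in red, with mean ± SD beside them): percent of the gene body under H3K27ac peaks, width in kb of the widest H3K4me3 promoter peak, and percentile of H3K4me3 fold enrichment. The first 2 measures do not overlap between treatments, at means of 5.12 and 14.7% and of 4.74 and 7.05 kb, and the third does.

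BCL2L11 encodes BIM, a BH3-only protein that binds and neutralizes BCL2. The gene lies on chromosome 2 from 111119378 to 111168444 on the plus strand. Its promoter window is shown because it lay under H3K27ac and H3K4me3 with H3K27me3 upstream of it. It held 39 CpG, more than 91.3% of RefSeq windows (RefSeq, GRCh38.p14, chr2:111120664-111120963, plus strand, CG in capitals).
BCL2L11 canonical start: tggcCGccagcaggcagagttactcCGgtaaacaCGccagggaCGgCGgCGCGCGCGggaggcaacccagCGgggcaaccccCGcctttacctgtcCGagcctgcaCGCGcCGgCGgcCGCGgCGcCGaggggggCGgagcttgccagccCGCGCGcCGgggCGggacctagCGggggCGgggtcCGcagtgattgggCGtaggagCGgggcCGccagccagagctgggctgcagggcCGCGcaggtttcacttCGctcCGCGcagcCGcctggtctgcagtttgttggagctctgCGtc

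H3K27me3 at BCL2L11 ranked high in every library, at percentiles 99.8, 98.2 and 99.1 in DMSO and 97.7, 96.7 and 84.1 in doxycycline. All 3 doxycycline values were below all 3 DMSO values, as for 4.24% of genes with promoter H3K27me3 in all 6 libraries. The difference was -6.2 points (SE 3.4), and limma gave an adjusted p of 0.996. The marks lay side by side, with H3K27me3 from -4.6 to -0.7 kb and H3K27ac from -0.8 to 2.6 kb, whereas H3K4me3 peaks spanned -2.0 to 2.9 kb. H3K27ac at this promoter ranked at 79.7, 75.9 and 79.0 in DMSO and 80.9, 71.9 and 79.5 in doxycycline, and H3K4me3 at 66.6 to 78.8 and 69.8 to 82.3, with overlap in both marks. Peaks cover a population of cells, so it cannot be told apart whether both kinds of mark were on the same chromosomes.

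APAF1 encodes the scaffold of the apoptosome. It lies on chromosome 12 from 98645290 to 98735433 on the plus strand, and IKBIP begins 177 bp away on the other strand, so that the promoter windows and peaks are shared by both genes. Its window, shown for its H3K4me3 values, held 42 CpG, more than 94.2% of RefSeq windows (RefSeq, GRCh38.p14, chr12:98645040-98645339, plus strand, CG in capitals).
APAF1 canonical start: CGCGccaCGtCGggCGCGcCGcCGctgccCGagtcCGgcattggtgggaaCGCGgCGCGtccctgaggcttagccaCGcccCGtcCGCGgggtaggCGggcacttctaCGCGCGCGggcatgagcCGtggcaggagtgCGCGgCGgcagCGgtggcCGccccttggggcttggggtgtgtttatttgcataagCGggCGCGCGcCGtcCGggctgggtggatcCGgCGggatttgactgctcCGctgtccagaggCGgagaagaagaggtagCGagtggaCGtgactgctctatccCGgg

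APAF1 had the highest H3K4me3 ranks of the group in DMSO, at percentiles 90.9, 83.9 and 95.7, and lower ones in doxycycline, at 58.6, 75.1 and 60.6. The treatments did not overlap, as for 9.19% of genes in this direction, and the difference of -25.3 points (SE 9.3) was the largest in size among the members in any mark. Limma gave an unadjusted p of 0.0115 and an adjusted p of 0.278, so it did not pass the test across all genes. Leaving out single libraries gave differences from -30.52 to -22.26 points. H3K4me3 covered 1.51, 1.48 and 1.41% of the body in DMSO and 1.28, 1.35 and 1.29% in doxycycline, lower in all 3, as for 7.84% of genes. H3K27ac ranked at 94.6, 92.8 and 91.7 in DMSO and 90.8, 83.8 and 88.1 in doxycycline, also without overlap, as for 12.3% of genes, with a difference of -5.5 points (SE 2.5, limma adjusted p = 0.395).

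The fit across all genes, limma on the percentile of the strongest promoter peak, called no gene in any mark at an adjusted p of 0.05 or less, so percent called was 0 for H3K4me1, H3K4me2, H3K4me3, H3K27ac and H3K27me3. An unadjusted p under 0.05 was found for 900 of 12270 genes in H3K4me1, 928 of 14338 in H3K4me2, 1804 of 14349 in H3K4me3, 1644 of 12827 in H3K27ac and 17 of 4011 in H3K27me3. The fit held 6, 8, 8, 5 and 2 of the members in that order, those with a promoter peak in all 6 libraries, and 3 of their values had an unadjusted p under 0.05 (APAF1 and TNFRSF10C for H3K4me3, TNFRSF10B for H3K27ac). The smallest adjusted p of a member was 0.278. TNFRSF10B H3K27ac differed by -8.7 points (SE 3.9, adjusted p = 0.388).

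Members did not all move one way in any mark. The median difference over the members tested was -12.35 points for H3K4me1, 3.57 for H3K4me2, -0.03 for H3K4me3, -3.32 for H3K27ac and -3.05 for H3K27me3, where the medians over all genes tested were -0.16, 0.13, -0.92, -0.62 and 0.59. Differences were positive for 2 members and negative for 4 in H3K4me1, and for 5 and 3 in H3K4me2. The split was 4 and 4 in H3K4me3, 1 and 4 in H3K27ac, and 1 and 1 in H3K27me3. At 3 libraries a group, the spread of a single gene was wide, with standard errors of 2.5 to 20.1 points.

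**Figure D5:**
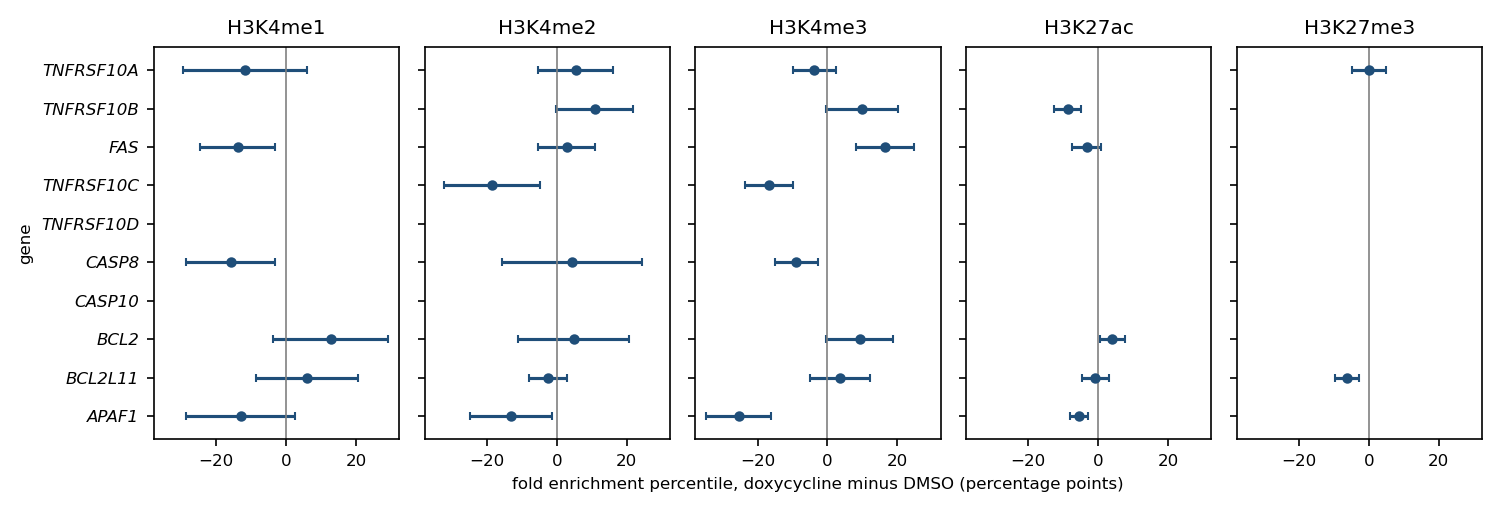
Difference of the promoter fold enrichment percentile, doxycycline minus DMSO in percentage points (x axis, bars are the limma standard error), for each gene (rows) with a promoter peak in all 6 libraries of the mark (panels). APAF1 H3K4me3 at -25.3 is the value farthest from 0, and no value passed the adjusted threshold.

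Taking all 78 member values of body cover and promoter peak width that could be compared, 10 had treatments that did not overlap, all described above. For each, the exact two-sided permutation test over 20 assignments gave p = 0.1, the smallest that 3 against 3 libraries allow. No member was without overlap for H3K4me2, where 2.78% of genes were for body cover and 2.72% for width, nor for H3K27ac width (12.7% of genes). With 1 member of 10 in a measure and direction, these counts are values of single genes and no result about the group.

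Same-numbered replicates deviated together for 4 marks, with correlations of 0.109 to 0.393 against a set minimum of 0.1. For H3K27me3 the correlations were 0.396, 0.067 and 0.280, so only replicate 2 fell below the minimum. Each count was therefore also taken over the 3 same-numbered pairs. The number of members with 1 direction in all 3 pairs was 6 for H3K4me1 body cover (39.3% of genes), 4 for H3K4me1 width (30.3%), 4 for H3K4me3 body cover (39.6%), 5 for H3K4me3 width (40.8%), 3 for H3K27ac body cover (38.4%) and 2 for H3K27ac width (34.2%). For H3K27ac body cover, CASP8 and TNFRSF10D were lower in all 3 pairs. BCL2 was higher in all 3 pairs for H3K27ac body cover and for both H3K4me3 measures. APAF1, FAS and TNFRSF10B were lower in all 3 pairs for both H3K4me3 measures. The fit across genes with the replicate number as a block called no gene in any mark.

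None of the printed windows held CACGTG, the E-box to which MYC proteins bind and which reads the same on both strands. It was found in 7.3% of the 35116 RefSeq windows. RefSeq windows matched 5 of the 10 members.

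The gene nearest to each member in its pattern over the 30 lists was found by the mean absolute difference of promoter percentiles, with 0 where no peak was called. For CASP8 the nearest were TOGARAM2 (9.34 points), TMEM273 (11.16) and SPINT2 (11.44). FAS was nearest to ACTA2 (1.34) and APAF1 to IKBIP (1.51), the genes with which they share promoter windows. The other members were farther from their nearest gene, BCL2 at 6.17 points from RNF165, BCL2L11 at 5.52 from PPP2R2C, TNFRSF10A at 5.39 from PLD4, TNFRSF10B at 6.81 from LINC02210-CRHR1, TNFRSF10C at 10.54 from WDR38 and CASP10 at 3.19 from LCE1A. TNFRSF10D tied at 0 with 1118 genes that also lacked any promoter peak.

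The wider apoptosis machinery was mostly marked, as were protein-coding genes in general. Of 39 other genes of the pathway, 32 had promoter H3K4me3 and 30 had H3K27ac in all 6 libraries, and 28 had no H3K27me3 in any. Over all 19970 genes, 14349 had H3K4me3 and 12827 had H3K27ac in all 6 libraries, and 64.4% had no H3K27me3 in any. H3K4me3 was absent from all 6 libraries at 6 of the 39 genes, and at 25.3% of all genes. The 6 were the ligand genes FASLG, TNFSF10 (TRAIL) and TNF, the death receptor gene TNFRSF25, the soluble decoy gene TNFRSF11B (osteoprotegerin), and BCL2A1, a survival relative of BCL2. Thus no promoter H3K4me3 was found at any of the 3 ligand genes, and the adaptors FADD, TRADD, RIPK1, CFLAR and DAXX and the caspases CASP2, CASP6 and CASP9 had H3K4me3 and H3K27ac in all 6 libraries.

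H3K27me3 was found at 4 of the 39 in all 6 libraries, TNFRSF11B, the adaptor gene TRADD, and the BH3-only genes BIK and HRK. Over all 19970 genes, 4011 had it in all 6 libraries. BIK was like TNFRSF10A in having H3K4me3 in all 6 and H3K27ac in none. HRK and TRADD had both, as BCL2L11 did. BOK, a pore former, had H3K27me3 in 3 DMSO and 2 doxycycline libraries, and RIPK1, a kinase of the receptor complexes, in 2 and 3.

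No gene of the 39 separated the treatments or was called by limma in any mark. H3K27ac body cover was higher in all 3 doxycycline libraries for 9 of the 39 and lower in all 3 for none. Of genes with H3K27ac on the body, 5.66% were higher and 10.3% lower, whereas the 39 were not limited to such genes. Among the 9 were TNFRSF21, TRADD, RIPK1, DAXX, BAK1, DIABLO and HTRA2, named after their values were seen. For H3K4me3 width, 1 was higher (BOK) and 3 were lower (FADD, PMAIP1 and BIRC2), where 3.24% and 7.07% of genes with promoter H3K4me3 were so. For H3K27ac width, 5 were higher and 0 lower, where 852 and 955 of 14274 genes with promoter H3K27ac were so. For H3K4me1 body cover, 3 were higher and 2 lower, where 673 and 1193 of 17400 genes with the mark on the body were so.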

How the data were processed

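The data were 30 lists of ChIP-seq peaks from KELLY cells, for 5 histone marks, 3 libraries for each mark and treatment. The 4 input samples entered only through the peak calls. The members and gene lists were chosen with earlier results of these data known.

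Per the methods of the study, reads were aligned to hg38 with Bowtie2, reporting 1 alignment per read, and a mapping quality of 30 or more was kept. Peaks were called with MACS2 2.1.1.20160309, in broad mode for H3K4me1, H3K27ac and H3K27me3 (q 0.05, weaker regions joined at q 0.1) and in narrow mode for H3K4me2 and H3K4me3 (p 1e-05 per the file headers, although the methods give q 0.05). The labels describe single-end and the methods paired-end reads. The headers show single-end calling. In the headers, the inputs of replicates 1 and 3 had identical read totals. The deposited pileup is a coverage signal in units of fragments. The −log10 values of p and q were deposited as the authors' peak caller wrote them. The deposited fold enrichment is the authors' ratio of ChIP signal to local background. These values depend on depth and input, so fold enrichment was turned into a percentile within each list.

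Start sites, bodies and canonical transcripts came from GENCODE release 44. Promoter windows were 1 kb either side of each start. Percentiles were fitted across genes with a promoter peak in all 6 libraries by limma 3.58.1 (R 4.3.3) with Benjamini-Hochberg adjustment. Body cover and peak width were compared by exact two-sided permutation. Other steps used python 3.11.15, numpy 2.4.6 and pandas 2.3.3. Correlations of same-numbered deviations were 0.109 to 0.393 for 4 marks and 0.067 to 0.396 for H3K27me3. All 10 members are named, and of the pathway genes those without H3K4me3, with H3K27me3 in all 3 libraries of a treatment, or called. The steps were tested on simulated data. Some genes of the lists and 1 sequence are not reported here.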

Additional observations from a re-analysis of the deposited data

How the results depend on the processing

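Of 280 alternative values of the group counts, 222 stayed the same and 58 moved, and of 145 values for single genes 138 stayed, 5 were weaker and 2 reversed. The reversed ones were TNFRSF10D H3K27ac body cover with lists of equal length (0.28 percentage points) and FAS H3K4me1 width at the canonical start (0.62 kb). Some values could not move, so the number that stayed the same overstates stability. Every H3K4me2 and H3K4me3 peak passed q 0.001, so that setting repeated the main one for these marks. Leaving out 1 library cannot remove a member that separates or does not overlap. At q 0.001 or less, members with H3K4me1 in all 3 libraries numbered 3 in DMSO and 1 in doxycycline, those with H3K27me3 1 and 0, and members without overlap 0 for H3K4me1 body cover and 0 for both H3K27me3 measures. With lists of equal length there were 2 for H3K4me1 body cover and 0 for both H3K27me3 measures. At the canonical start there were 0 for H3K4me1 width and 1 for H3K4me3 width. With 500 bp covered, 1 member, FAS, separated for H3K27me3, and in the 1 DMSO library of the long fragment kind 6 members had H3K27me3.

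Limma called 1 gene for H3K4me1 and 205 for H3K27ac on quantile-normalised log2 fold enrichment, and 8 for H3K4me3 and 48 for H3K27ac on the −log10 p percentile. For H3K27ac it also called 3 with no filter, 2 at q 0.001 or less, 3 with lists of equal length and 2 at the canonical start. The causes were not tested.

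With the replicate block, members with 1 direction in all pairs numbered 6 and 4 for H3K4me1 body cover and width, and 4 and 5 for H3K4me3. They numbered 3 (CASP8 added) and 2 for H3K27ac. For H3K27me3 body cover there were 2, and replicate 2 of that mark fell below the pairing minimum. The block changed none of the other counts, and the fit across genes called 0 genes in every mark with it.

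Leaving out 1 library gave 0 to 1 separating members for H3K4me1 (DMSO replicate 2) and H3K27me3 (DMSO replicates 1 and 2). Members without overlap in body cover and width ranged from 1 to 5 and 1 to 4 for H3K4me1, both highest without doxycycline replicate 1. They ranged from 0 to 1 and 0 to 2 for H3K4me2, from 2 to 4 and 2 to 5 for H3K4me3, and from 2 to 5 and 1 to 2 for H3K27ac, highest without DMSO replicate 3 except H3K4me2 body cover, which was highest without DMSO replicate 1. For H3K27me3 they were 1 to 2 and 1 to 3, highest without doxycycline replicate 3. Limma calls for H3K27ac were 0 to 1. Groups of 2 libraries overlap less often by construction.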
